A study of Homo sapiens with 24 samples.

Results

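The 36 genes described here are ATF4, the transcription factor of the integrated stress response, the factors that act with it, and the genes of amino acid synthesis, amino acid uptake and stress signalling that it is known to activate. They were taken by gene name from the 58735 gene rows of the count table. Each name had 1 gene ID, and all 36 entered every test. RNA was sequenced from OE33 and SK-GT-4, both established human esophageal adenocarcinoma cell lines, in 24 libraries that form 8 groups of 3. In each line, a control clone that carried Cas9 alone and a cGAS KO clone, both made with lentiviral CRISPR vectors, received either DMSO or 500 nM of reversine for 48 h (MPS1i), which blocks MPS1, a kinase of the spindle assembly checkpoint. cGAS is the enzyme that senses DNA in the cytosol, and reversine makes chromosomes missegregate, so the design asks which responses to missegregation need cGAS. The 3 replicates of a group are repeats of 1 clone, and libraries with the same replicate number were taken as a batch. A difference between clones therefore cannot be told apart from the loss of cGAS. The p-values measure the spread between repeats that remains after a term for batch, and not a spread between clones.

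In the integrated stress response, stress-activated kinases (PERK, GCN2, PKR and HRI) phosphorylate the initiation factor eIF2, which slows protein synthesis in general but favours translation of ATF4 through short open reading frames upstream of its coding sequence. ATF4 protein pairs with C/EBP factors and binds composite C/EBP-ATF elements near genes for asparagine, serine, glycine and proline synthesis, amino acid transporters, and regulators such as CHOP (gene DDIT3), TRIB3 and CHAC1. PPP1R15A, the regulatory subunit of an eIF2 phosphatase, closes the loop. Because ATF4 is controlled largely at translation, its mRNA reports on the pathway only in part, and its target genes are the usual transcript readout.

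The core of the composite element, TGATGNAA on either strand, was looked up in RefSeq promoters of GRCh38.p14, each reaching from 250 bases before a transcription start to 50 bases after it. Of the 36 names, 30 matched, with 47 promoters. The letters occurred in 9 of the 47 (19.1%) and in 1270 of all 35116 promoters (3.62%), which is 9 of 30 members (30%) against 4.46% of genes. Of these genes, 6 held them before the start itself, and these sites are printed because ATF4 is known to act through such elements close to the start of a gene. The motif is in capitals, written 5′ to 3′ along the gene's strand.
ATF3, chr1:212565205-212565234 (+): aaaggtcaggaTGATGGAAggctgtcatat
ASNS, chr7:97872458-97872487 (-): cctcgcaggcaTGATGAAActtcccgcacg
JDP2, chr14:75427995-75428021 (+): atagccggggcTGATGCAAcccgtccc
CHAC1, chr15:40953251-40953280 (+): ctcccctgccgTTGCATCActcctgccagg
CEBPG, chr19:33374060-33374089 (+): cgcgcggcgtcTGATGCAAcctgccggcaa
SLC1A5, chr19:46784893-46784922 (-): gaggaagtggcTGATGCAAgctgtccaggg
JDP2, CEBPG and SLC1A5 share the same 8 letters, CHAC1 carries them on the opposite strand, and ATF3 and ASNS differ from them at the free position. A match describes the sequence only, and binding was not measured.

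Total counts ran from 15561268 to 25284177 per library. Levels are given as CPM, which are counts scaled to a common library size, with trimmed-mean normalization over all 24 libraries, and always in the order of replicates 1 to 3. CGAS itself read 28.9 to 41.6 CPM in OE33 Cas9 and 14.7 to 26.1 CPM in SK-GT-4 Cas9, against 2.31 to 2.82 CPM in OE33 cGAS KO and 2.22 to 6.09 CPM in SK-GT-4 cGAS KO. The exception was the library labelled as replicate 2 of OE33 cGAS KO with DMSO, at 15.6 CPM. In SK-GT-4, replicate 1 of cGAS KO with DMSO and replicate 2 of Cas9 with MPS1i are called here the libraries that stood apart. In these, 43.1% and 25.6% of 13397 genes lay more than 1 log2 unit from the mean of the other 2 libraries of the group. Replicate 2 of SK-GT-4 cGAS KO with DMSO was at 27.2%, and every other library of the series at 1.28 to 12.7%. That replicate 2 was set against a mean that includes replicate 1, but so was replicate 3 of its group, at 8.23%. The library at 27.2% was not left out on this ground, although its share exceeded 25.6%. Counts of called members are given with and without the library of 15.6 CPM and those that stood apart, as are leading values that rest on them. MPS1i effects of single genes in OE33, and counts there at an unadjusted p, are not given with only the library of 15.6 CPM left out. In SK-GT-4, leaving out replicate 1 of cGAS KO with DMSO and replicate 2 of Cas9 with MPS1i together was chosen after seeing the data. Taking out libraries picked for their distance from their groups lowers the spread, so adjusted p-values without them only describe the libraries kept. Mitochondrial transcripts took 5.10 to 8.94% of counts in OE33 batch 3 and 1.34 to 2.31% in the other OE33 batches. In SK-GT-4 they took 5.66 to 11.3% in cGAS KO replicates 2 and 3 and 1.21 to 3.94% elsewhere. Epithelial markers (EPCAM, KRT8, KRT18, KRT19 and CDH1) summed to between 16301 and 22543 CPM in OE33, while immune markers (PTPRC, CD3E, CD68 and LYZ) summed to at most 0.380 CPM in any library. SK-GT-4 expressed the epithelial markers at 3678 to 8636 CPM in Cas9 and 9021 to 19356 CPM in cGAS KO. The fibroblast markers COL1A1, COL1A2 and PDGFRB summed to 4.33 to 81.7 CPM in SK-GT-4, with PDGFRB at most 1.56 CPM. The endothelial markers PECAM1, VWF and CDH5 summed to 5.40 to 19.2 CPM there, with VWF at most 0.347 CPM. In OE33 these sums reached at most 6.98 and 0.362 CPM. In bulk RNA, fewer cells that express a gene and less of its RNA per cell cannot be told apart.

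Together the 36 genes took 0.334 to 0.582% of counts in OE33 and 0.372 to 0.919% in SK-GT-4. Per kilobase of transcript, the amino acid transporter SLC7A5 stood highest among them in the Cas9 DMSO group of each line, though not in every OE33 group. It read 136 CPM per kb in OE33 Cas9 DMSO and 428 in SK-GT-4 Cas9 DMSO, where ATF4 itself read 56.8 and 87.0 CPM per kb. At the low end, ASNS, ALDH1L2, NUPR1 and STC2 read at most 0.544 CPM per kb in both of these groups, SLC1A4 did so in OE33 and TRIB3 in SK-GT-4. ASNS is uncertain: in a current annotation (GENCODE 44), 49.3% of its exonic bases also belong to another gene model on the same strand, and its counts were 17 to 430 per library. DDIT3 shares 39.6% of its exonic bases with other genes, PYCR1 29.7%, SLC1A5 23.8%, ATF5 22.1%, MTHFD2 14.1% and CEBPB 12.6%, mostly on the opposite strand, and the strand setting of the counting is not given in the sources used here. The map of all 36 genes over all 24 libraries shows 2 features that recur below. In OE33, replicate 3 was the highest of its group for 21 to 26 of the 36 genes in each of the 4 groups. In SK-GT-4, the median of the 36 genes, as log2 CPM minus each gene's mean over the line, was -0.55 to 0.09 in the 6 Cas9 libraries and 0.28 to 0.54 in the cGAS KO libraries of replicates 2 and 3. In replicate 1 of cGAS KO it was -0.36 with DMSO, within the Cas9 range, and 0.30 with MPS1i.

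**Figure D1:**
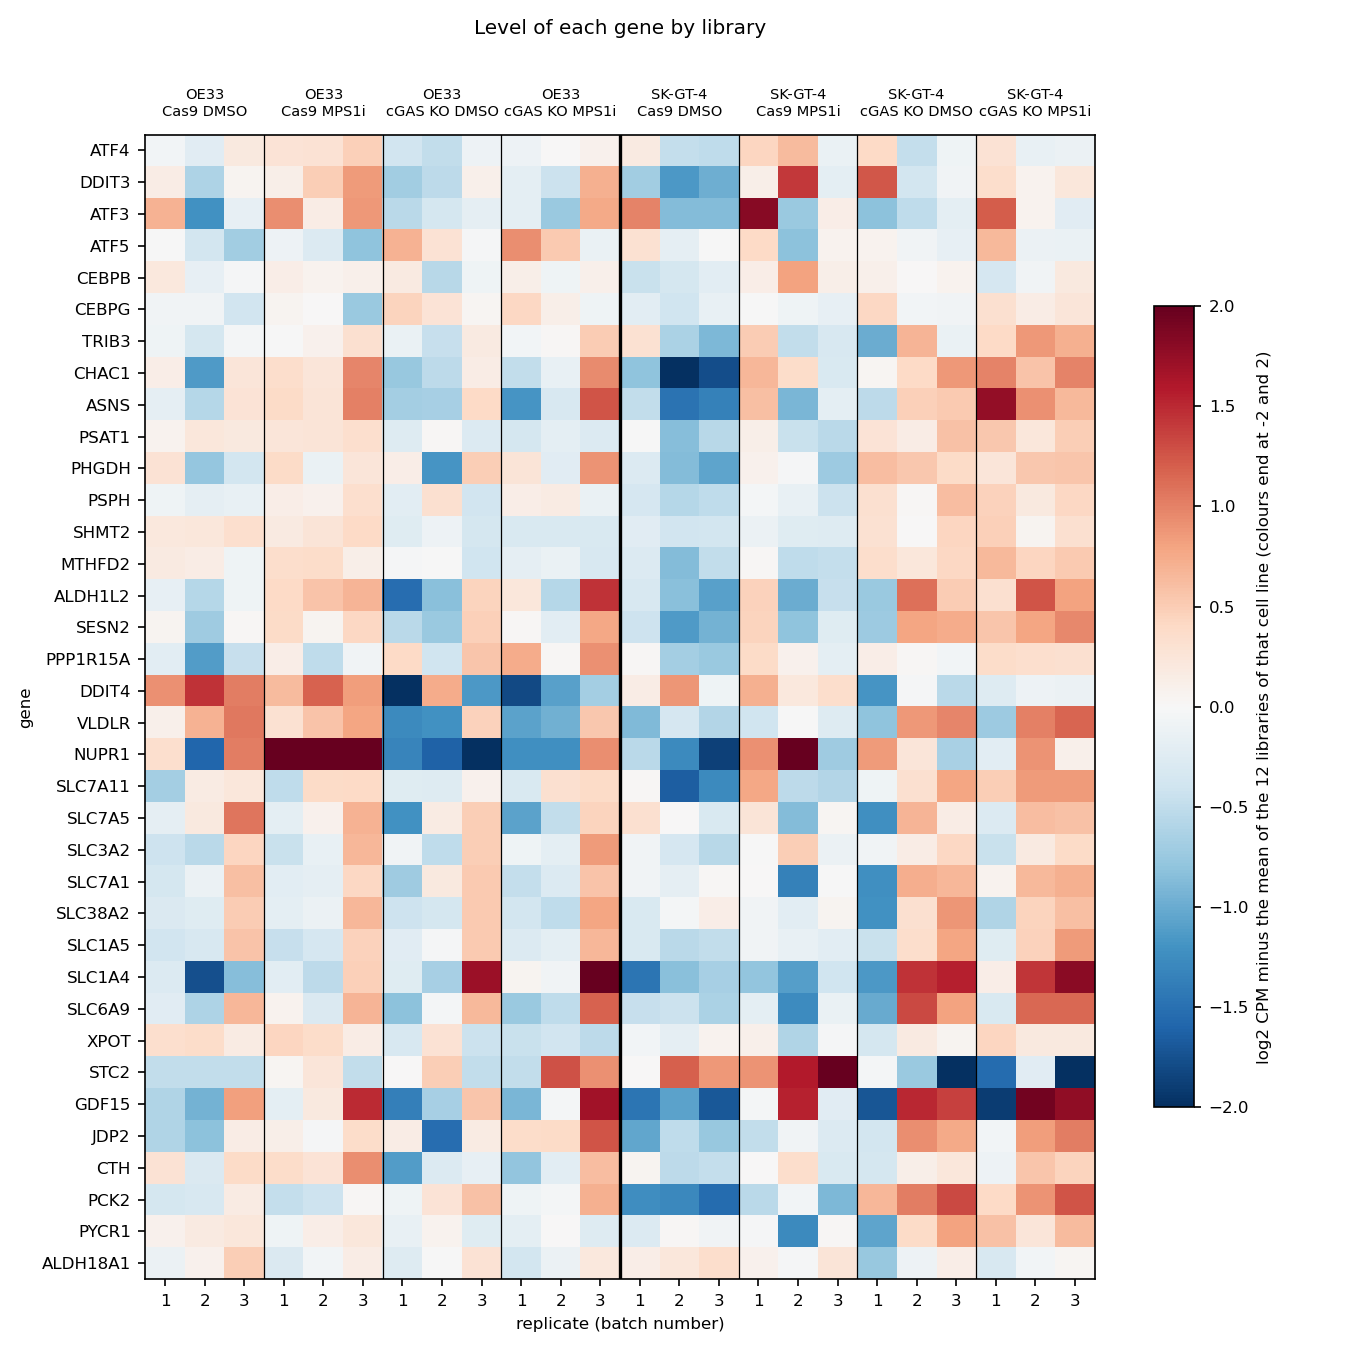
Level of each gene in each library, as log2 CPM minus the gene's mean over the 12 libraries of the same cell line (red higher, blue lower, colours ending at -2 and 2). Columns are libraries by group and replicate number, and rows are the 36 genes in order of role. In OE33 the third column of each group is the reddest for most genes. In SK-GT-4 the bluest columns by the median of the 36 genes are Cas9 DMSO replicates 3 (-0.55) and 2 (-0.53), followed by replicate 1 of cGAS KO with DMSO (-0.36), while the other 5 cGAS KO columns are the reddest (0.28 to 0.54).

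In OE33, the genes of the response read slightly higher with MPS1i than with DMSO in both clones, and no difference passed an adjusted p of 0.01 in the fit with 1 term per batch. The fitted log2 fold change was above 0 for 25 of 36 genes in Cas9 (median 0.19) and for 24 of 36 in cGAS KO (median 0.19), whereas the median of all 20426 genes tested was 0.01 and 0.00. An unadjusted p of at most 0.05 with a higher level was reached by 11 of 36 in Cas9, where 3.52% of all genes reached it, by 9 of 36 in cGAS KO (3.82% of all genes), and by 16 of 36 in the average over both clones (6.19% of all genes, or 7.94% of those with a mean of at least 1 CPM). These counts rest on comparison within batches: without the batch term they were 1 (1.69% of all genes), 2 (1.43%) and 5 (2.85%). Without replicate 3 they were 5 (1.86%), 5 (2.31%) and 9 (3.56%), and without replicate 2 the count in Cas9 was 3 (2.65%). By the quasi-likelihood test of edgeR, with p-values adjusted by Benjamini and Hochberg's method, 0 of 36 passed the threshold of 0.01 in Cas9 (0.0049% of all genes), in cGAS KO (0%) or in the average (0.0294%). Treated and untreated libraries of a clone with the same replicate number resembled each other. With a block for each pair of clone and batch, the same test called 10 of 36 in the average, all higher (2.73% of all genes), 2 in Cas9 (0.455%) and 2 in cGAS KO (0.494%). DESeq2 with the original design called 3 in the average (0.832% of all genes), ATF4, PPP1R15A and GDF15.

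Among the transcription factors, ATF4 (ENSG00000128272, chr22:39519695-39522685) read 139, 124 and 165 CPM with DMSO and 174, 177 and 200.5 CPM with MPS1i in OE33 Cas9. In OE33 cGAS KO it read 111, 103 and 135 CPM and 135, 144 and 154 CPM. Each treated library exceeded every untreated library of its clone, and the log2 fold change averaged over clones was 0.33 ± 0.08 (SE, adjusted p = 0.0714; 0.00225 with the block per clone and batch). DDIT3, which encodes the pro-apoptotic factor CHOP, read 8.85, 5.13 and 8.22 CPM and 8.63, 11.2 and 14.3 CPM in Cas9, and 4.86, 5.52 and 8.48 CPM and 6.94, 5.87 and 13 CPM in cGAS KO. Its groups overlapped in both clones, with an average log2 fold change of 0.49 ± 0.15 (adjusted p = 0.169; 0.013 with that block). ATF3, a stress-induced factor of the same family, read 20.6, 5.44 and 11.4 CPM and 24.3, 14.1 and 23.2 CPM in Cas9 and 8.71, 9.94 and 11.2 CPM and 11.1, 7.54 and 21.6 CPM in cGAS KO. The untreated Cas9 libraries alone spanned 5.44 to 20.6 CPM, so that the groups overlapped, and the average of 0.53 ± 0.21 had an adjusted p of 0.307 (0.00464 with that block). The dimerization partner CEBPB read 196, 151 and 167 CPM and 186, 178 and 181 CPM in Cas9 and 191, 115 and 159 CPM and 184, 159 and 181 CPM in cGAS KO. Its treated and untreated libraries overlapped, and the average log2 fold change was 0.13 ± 0.09. ATF5, which like ATF4 is controlled by upstream reading frames, and CEBPG, the other C/EBP partner, gave averages of 0.03 ± 0.10 and -0.10 ± 0.09.

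TRIB3, a pseudokinase that restrains AKT and ATF4, was abundant in OE33 at 207, 171 and 213 CPM with DMSO and 219, 233 and 275 CPM with MPS1i in Cas9, and 201, 159 and 248 CPM and 209.8, 222 and 312 CPM in cGAS KO. The treated Cas9 libraries lay above the untreated ones, the cGAS KO groups overlapped, and the average was 0.28 ± 0.09 (adjusted p = 0.171). CHAC1, which degrades glutathione, read 12, 4.92 and 13 CPM and 14, 12.9 and 21.7 CPM in Cas9 and 6.44, 7.56 and 12.1 CPM and 7.74, 9.8 and 21 CPM in cGAS KO. Each treated library exceeded the untreated library of its batch, although the groups overlapped, and the average of 0.59 ± 0.17 moved from an adjusted p of 0.132 to 0.00102 with the block per clone and batch. SESN2, a leucine sensor that restrains mTORC1, read 14.1, 8.26 and 13.7 CPM and 17.7, 14 and 18.1 CPM in Cas9 and 9.23, 8.04 and 18.9 CPM and 13.8, 11.7 and 23.1 CPM in cGAS KO. It behaved like CHAC1, being higher in 6 of 6 pairs with an average of 0.45 ± 0.13 (adjusted p = 0.148; 0.00327 with that block). PPP1R15A read 106, 56.8 and 89.1 CPM and 135, 86.9 and 117 CPM in Cas9 and 163, 93 and 181 CPM and 205, 125 and 233 CPM in cGAS KO. The 6 within-batch differences of PPP1R15A lay close together, between 0.33 and 0.61 on the log2 scale, and the average was 0.39 ± 0.08 (adjusted p = 0.0562; 0.00024 with that block). DDIT4, another restraint on mTORC1, read 63.4, 91.4 and 68.4 CPM and 52.1, 76.5 and 60.3 CPM in Cas9 and 8.1, 56.6 and 15.2 CPM and 9.58, 15.8 and 20.9 CPM in cGAS KO. It was lower with MPS1i in each Cas9 batch by 0.18 to 0.28 on the log2 scale, and its cGAS KO values turned on replicate 2, where the untreated library was the one with the CGAS level of 15.6 CPM.

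Of the secreted products, GDF15, a circulating stress cytokine (ENSG00000130513, chr19:18374731-18389176), had the smallest adjusted p of the 36 genes in OE33. It read 164, 129 and 438 CPM with DMSO and 217, 286 and 699.6 CPM with MPS1i in Cas9, and 96.4, 156 and 367 CPM and 132, 243 and 795 CPM in cGAS KO. Batches differed more than treatments, and within each batch the treated library was the higher, by 0.40 to 1.15 on the log2 scale. The average was 0.71 ± 0.13 (adjusted p = 0.0358), and with the block per clone and batch GDF15 rose in Cas9 (adjusted p = 0.00038) and in cGAS KO (0.000371). NUPR1, a small stress-induced nuclear protein, stood near the floor of detection: it had 9, 1 and 16 counts with DMSO and 39, 30 and 51 with MPS1i in Cas9, and 2, 1 and 0 against 2, 2 and 14 in cGAS KO. In CPM these were 0.466, 0.0513 and 0.807 and 1.68, 1.95 and 2.77 in Cas9, and 0.081, 0.0475 and 0 and 0.0944, 0.0925 and 0.752 in cGAS KO. The treated Cas9 libraries did not overlap the untreated ones (2.40 ± 0.55 in Cas9, adjusted p = 0.319; 0.00601 with that block), while the cGAS KO comparison rests on 1 treated library. JDP2, a repressor of AP-1, read 3.62, 3.08 and 6.15 CPM with DMSO and 6, 5.4 and 7.17 CPM with MPS1i in Cas9, and 6.12, 1.85 and 6.23 CPM and 7.17, 7.26 and 13.3 CPM in cGAS KO, an average of 0.77 ± 0.18 (adjusted p = 0.0758; 0.000907 with that block). In cGAS KO, JDP2 differed most in batch 2 on the log2 scale. Its untreated library there, at 1.85 CPM, was the one with a CGAS level of 15.6 CPM. STC2, a secreted glycoprotein, had 0 to 5 counts in every OE33 library, too few for a comparison.

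ASNS, asparagine synthetase, read 1.71, 1.28 and 2.37 CPM with DMSO and 2.54, 2.34 and 4.02 CPM with MPS1i in OE33 Cas9, and 1.17, 1.19 and 2.59 CPM and 0.802, 1.53 and 4.78 CPM in cGAS KO. Its groups overlapped, with an average of 0.54 ± 0.23 (adjusted p = 0.353). Of the serine synthesis enzymes, PHGDH read 26.5, 12.7 and 16.8 CPM and 28.4, 19.8 and 25.9 CPM in Cas9 and 23.9, 9.61 and 30.5 CPM and 26, 18.5 and 40.7 CPM in cGAS KO. It was higher in 6 of 6 pairs, with an average of 0.43 ± 0.15 (adjusted p = 0.234; 0.00357 with the block per clone and batch). PSAT1, the next enzyme of the pathway, read 157, 174 and 171 CPM and 177, 179 and 188 CPM in Cas9 and 125, 153 and 124 CPM and 118, 131 and 124 CPM in cGAS KO. It was slightly higher with MPS1i in Cas9 and slightly lower in cGAS KO (0.10 ± 0.11 and -0.12 ± 0.11), and neither difference passed the test (adjusted p = 0.9 and 0.861). The fall of PSAT1 in cGAS KO was largest in batch 2, whose untreated library was the one with a CGAS level of 15.6 CPM. The mitochondrial folate enzyme ALDH1L2 averaged 0.94 ± 0.26 (adjusted p = 0.116; 0.00202 with that block) at no more than 5.69 CPM, whereas its neighbours in the same pathway, SHMT2 and MTHFD2, averaged -0.05 and 0.04. Of the transporters with more than 10 CPM, the cystine carrier SLC7A11 averaged 0.20 ± 0.10, its partner chain SLC3A2 0.19 ± 0.09, and the leucine carrier SLC7A5 -0.20 ± 0.12. ALDH18A1 and PYCR1, both of proline synthesis, averaged -0.18 and -0.08, and the mitochondrial carboxykinase PCK2 -0.11.

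In SK-GT-4 Cas9, the genes also read higher with MPS1i, against a wider spread between libraries (biological coefficient of variation 34.0% against 15.0% in OE33). The log2 fold change was above 0 for 30 of 36 genes (median 0.37, against 0.04 for all 22782 genes tested), and the medians by batch were 0.32, 0.37 and 0.35. An unadjusted p of at most 0.05 with a higher level was reached by 9 of 36 (2.01% of all genes, 1.73% of those with a mean of at least 1 CPM), by 4 without replicate 2 (0.679% of all genes) and by 5 without replicate 3 (0.76%). No member was called, and neither was any other gene (0%). The smallest adjusted p was 0.981, by edgeR's test. Without the 2 libraries that stood apart, 17 of 36 reached an unadjusted p of at most 0.05 (3.3% of all genes), and 4 of 36 rose (0.103%), namely ATF3, CHAC1, ASNS and GDF15. In SK-GT-4 cGAS KO, 30 of 36 genes were above 0 with a median of 0.19, 0 of 36 reached an unadjusted p of at most 0.05 (0.733% of all genes) and 0 were called (0%). Without replicate 1 of cGAS KO with DMSO, that median was -0.025. Averaged over clones, 35 of 36 genes lay above 0 with a median of 0.27, 6 reached an unadjusted p of at most 0.05 (1.73% of all genes), and 0 were called (0%). That count was 14 with a block per clone and batch (2.02% of all genes) and 2 without replicate 3 (0.685%). The differences of MPS1i effects between the lines did not pass an unadjusted p of at most 0.05 for any of the 36, and 0 were called (0% of 25181 genes), with a median of -0.11 for OE33 minus SK-GT-4.

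CHAC1 (ENSG00000128965, chr15:40952962-40956519) gave the smallest p of the 36 for MPS1i against DMSO in SK-GT-4 Cas9. It read 8.58, 3.61 and 4.31 CPM with DMSO and 24, 19.4 and 12.2 CPM with MPS1i in Cas9, and 15.5, 19.8 and 27.6 CPM and 29.9, 22.3 and 30.1 CPM in cGAS KO. The treated Cas9 libraries all lay above the untreated ones, and in replicates 2 and 3 the cGAS KO libraries exceeded the treated Cas9 library of their batch with either agent. The log2 fold change was 1.79 ± 0.36 in Cas9 (unadjusted p = 0.000382, adjusted p = 0.981) and 0.36 ± 0.34 in cGAS KO. Without the libraries that stood apart, CHAC1 rose by 1.53 ± 0.20 in Cas9 (adjusted p = 4.23e-07). DDIT3 read 6.18, 4.48 and 5.05 CPM and 10.9, 27 and 8.76 CPM in Cas9, and 23.8, 7.79 and 9.51 CPM and 12.8, 10.5 and 11.8 CPM in cGAS KO. The 2 highest values of DDIT3 were those of the libraries that stood apart, and the Cas9 fold change of 1.55 ± 0.46 became 0.81 ± 0.22 without them (adjusted p = 0.981 and 0.12). GDF15 read 23, 30.2 and 19.6 CPM and 61.6, 185 and 54.1 CPM in Cas9. In cGAS KO it read 19.4, 180.4 and 164 CPM and 17, 243 and 219 CPM. Treated and untreated Cas9 libraries did not overlap (1.78 ± 0.69; 1.59 ± 0.28, adjusted p = 0.000279, without the libraries that stood apart), and in cGAS KO both replicate 1 libraries read no higher than untreated Cas9 while the others read 164 CPM or more.

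NUPR1 was low in SK-GT-4 too, at 32, 23 and 16 counts with DMSO and 108, 201 and 28 with MPS1i in Cas9, and 76, 60 and 28 and 51, 112 and 50 in cGAS KO. As CPM these were 1.63, 0.945 and 0.594 and 4.65, 11.6 and 1.44 in Cas9, and 4.45, 2.87 and 1.5 and 2.07, 4.55 and 2.58 in cGAS KO. The Cas9 fold change was 2.24 ± 0.54, with treated replicate 2 the highest library and overlap between the groups (1.64 ± 0.35, adjusted p = 0.0105, without the libraries that stood apart). ATF4 read 290.1, 185 and 181 CPM and 345, 400.3 and 234 CPM in Cas9 and 337, 184 and 243 CPM and 314, 232 and 238 CPM in cGAS KO. It was higher in each Cas9 batch, although the groups overlapped, with fold changes of 0.60 ± 0.25 in Cas9 (0.28 ± 0.18 without those libraries) and 0.06 ± 0.25 in cGAS KO. ATF3 read 29, 7.93 and 7.95 CPM and 51.6, 8.72 and 16.1 CPM in Cas9 and 8.25, 10.2 and 12.8 CPM and 34, 15.4 and 12.5 CPM in cGAS KO. Batch 1 was the highest of the Cas9 groups, and the fold change was 0.71 ± 0.45 in Cas9 (0.96 ± 0.19 without the libraries that stood apart, adjusted p = 0.0022). ASNS read 3.58, 1.77 and 1.93 CPM and 7.74, 2.66 and 4.43 CPM in Cas9 and 3.51, 7.12 and 7.31 CPM and 17.4, 9.68 and 7.96 CPM in cGAS KO. It was higher with MPS1i in 6 of 6 pairs, by 1.01 ± 0.43 in Cas9 (1.19 ± 0.25, adjusted p = 0.00475, without those libraries) and 0.81 ± 0.43 in cGAS KO. PCK2, which converts oxaloacetate to phosphoenolpyruvate in mitochondria, read 18.6, 18 and 15.2 CPM and 30.5, 42.5 and 23.5 CPM in Cas9, and 70.3, 89.4 and 110.4 CPM and 58.1, 82.5 and 106 CPM in cGAS KO. Its Cas9 groups did not overlap (0.88 ± 0.28; 0.65 ± 0.19, adjusted p = 0.253, without those libraries), and in cGAS KO the fold change was -0.13 ± 0.28. CEBPB read 56.9, 61.1 and 66.9 CPM and 85.6, 136 and 84 CPM in Cas9, and 83.2, 77.8 and 81.2 CPM and 61.3, 74.1 and 89.2 CPM in cGAS KO. It too separated the Cas9 groups (0.71 ± 0.23; 0.47 ± 0.17, adjusted p = 0.706, without those libraries) but not the cGAS KO groups (-0.11 ± 0.23).

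SESN2 read 14.1, 8.5 and 9.73 CPM with DMSO and 25.6, 10.7 and 15.9 CPM with MPS1i in Cas9, and 11.3, 32.5 and 31.7 CPM and 27.7, 32.6 and 36.7 CPM in cGAS KO. PPP1R15A read 112, 68.6 and 65.5 CPM and 143, 116 and 96.1 CPM in Cas9, and 120.1, 112 and 106 CPM and 141, 138 and 136 CPM in cGAS KO. Both were higher in each of the 3 Cas9 batches (0.69 ± 0.43 and 0.55 ± 0.21) and overlapped between treated and untreated Cas9 libraries. Without the libraries that stood apart, the fold changes were 0.89 ± 0.20 (adjusted p = 0.0129) and 0.50 ± 0.18 (0.611). TRIB3, by contrast with OE33, was nearly silent, at 2.6, 1.31 and 1.08 CPM and 3.01, 1.44 and 1.65 CPM in Cas9 and 0.995, 3.39 and 1.88 CPM and 2.76, 3.86 and 3.46 CPM in cGAS KO. SLC7A11 read 68.5, 21.5 and 27.9 CPM and 115, 46.8 and 45 CPM in Cas9, and 63.6, 84.6 and 117 CPM and 94.4, 122 and 122 CPM in cGAS KO. The untreated Cas9 libraries of batches 2 and 3 were the lowest for SLC7A11, which was higher with MPS1i in each of the Cas9 batches (0.84 ± 0.43; 0.88 ± 0.20, adjusted p = 0.0258, without those libraries). STC2 had 6, 20 and 17 counts and 15, 19 and 31 counts in Cas9, and 5, 3 and 0 and 1, 6 and 0 counts in cGAS KO. No STC2 library exceeded 31 counts, and those of cGAS KO reached 6 at most.

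**Figure D2:**
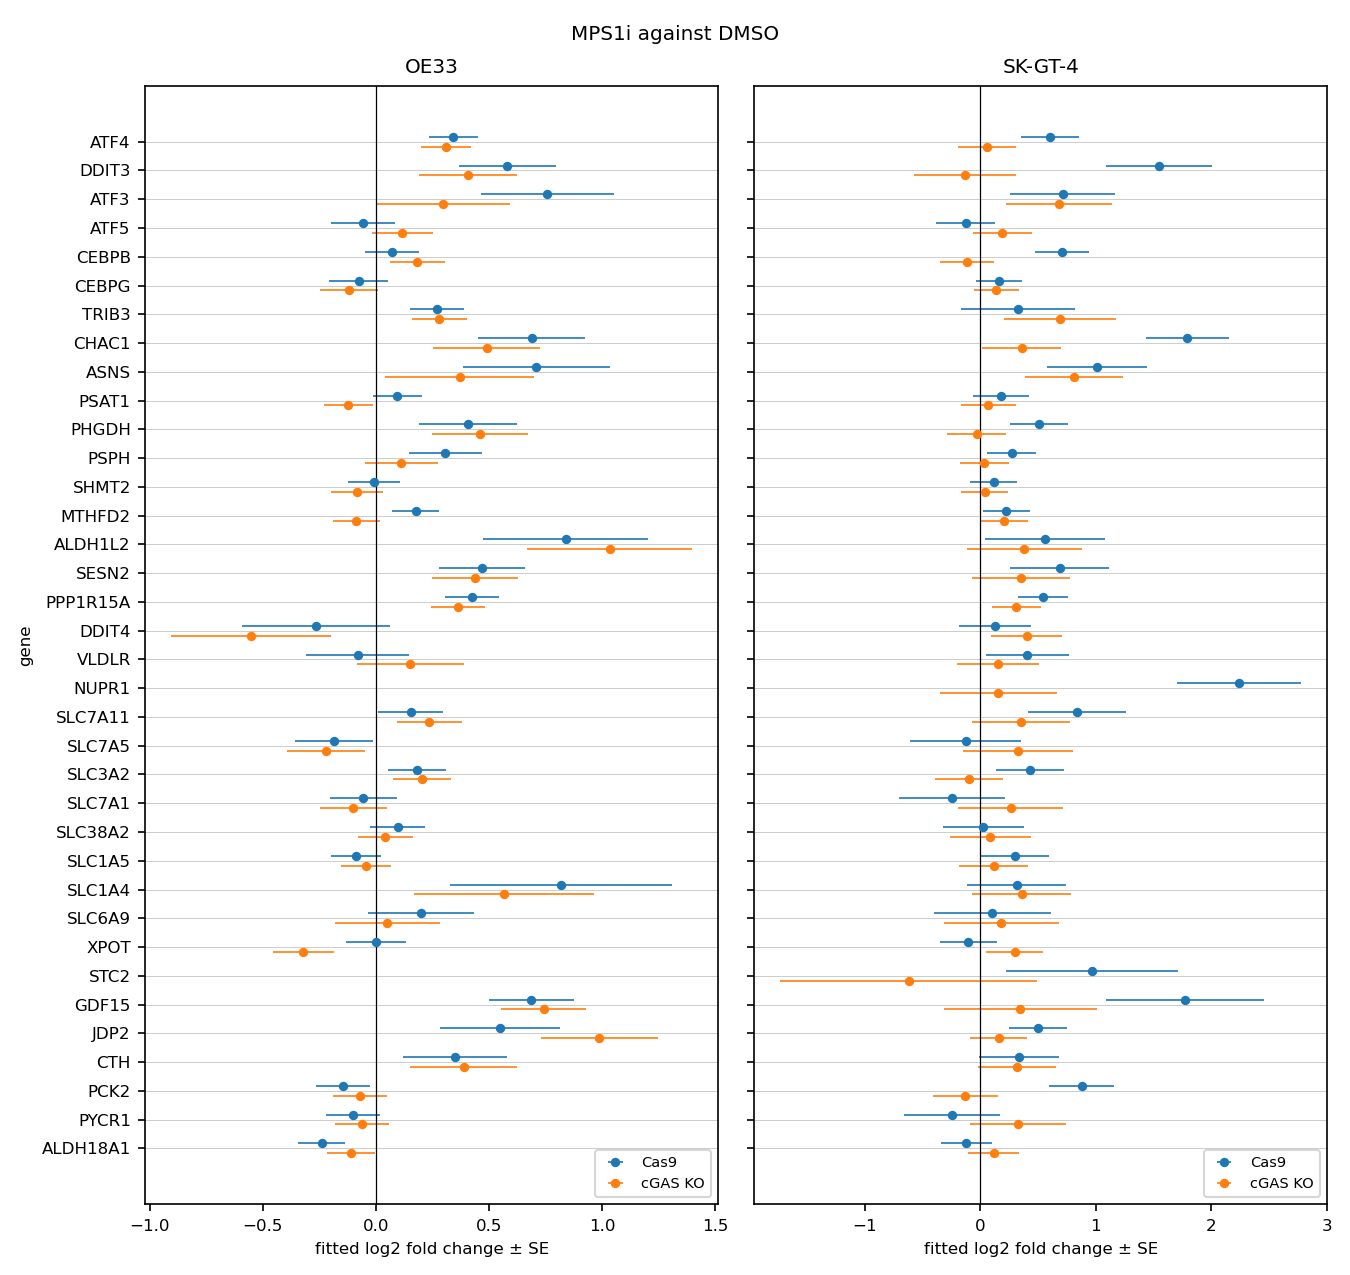
Fitted log2 fold change of MPS1i against DMSO for each gene in Cas9 (blue) and cGAS KO (orange), OE33 on the left and SK-GT-4 on the right, on different scales. Bars are 1 standard error from edgeR's fit over the 12 libraries of a line. NUPR1 and STC2 are left out of the OE33 panel because of their counts. Blue and orange lie close together in OE33, whereas in SK-GT-4 CHAC1, DDIT3, NUPR1, GDF15 and PCK2 have blue points to the right of the orange ones.

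Whether the effect of MPS1i differed between the Cas9 and cGAS KO clones was tested as the difference of the 2 fold changes. In OE33 the difference had a median of 0.04 over the 36 genes, 0 of 36 reached an unadjusted p of at most 0.05 in the fit with 1 term per batch, and 0 were called (0%). The smallest unadjusted p was that of MTHFD2 (0.26 ± 0.15, adjusted p = 1 by edgeR's test), and the difference for ATF4 was 0.03 ± 0.15. In SK-GT-4 the difference was above 0, meaning a larger effect in Cas9, for 25 of 36 genes with a median of 0.18. An unadjusted p of at most 0.05 was reached by 5 of 36, all of them larger in Cas9 (1.88% of all genes), and 0 were called (0%). These 5 were DDIT3 (1.68 ± 0.63), CEBPB (0.82 ± 0.33), CHAC1 (1.43 ± 0.49), NUPR1 (2.09 ± 0.73) and PCK2 (1.01 ± 0.40), each with an adjusted p of 0.823 by edgeR's test. In all 3 batches the sign was the same for each of the 5. Batches 1 and 2 each hold 1 of the libraries that stood apart. In batch 3, which holds neither, the difference was the smallest of the 3 for DDIT3, CEBPB, NUPR1 and PCK2. For CHAC1 it was smallest in batch 1. Without replicate 2, 1 of 36 reached that unadjusted p (1.08% of all genes), and without the libraries that stood apart 13 did (1.34%). Without those libraries the difference was 0.49 for DDIT3 and 1.56 for CHAC1, and CHAC1 was then the 1 member called (adjusted p = 0.000842).

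**Figure D3:**
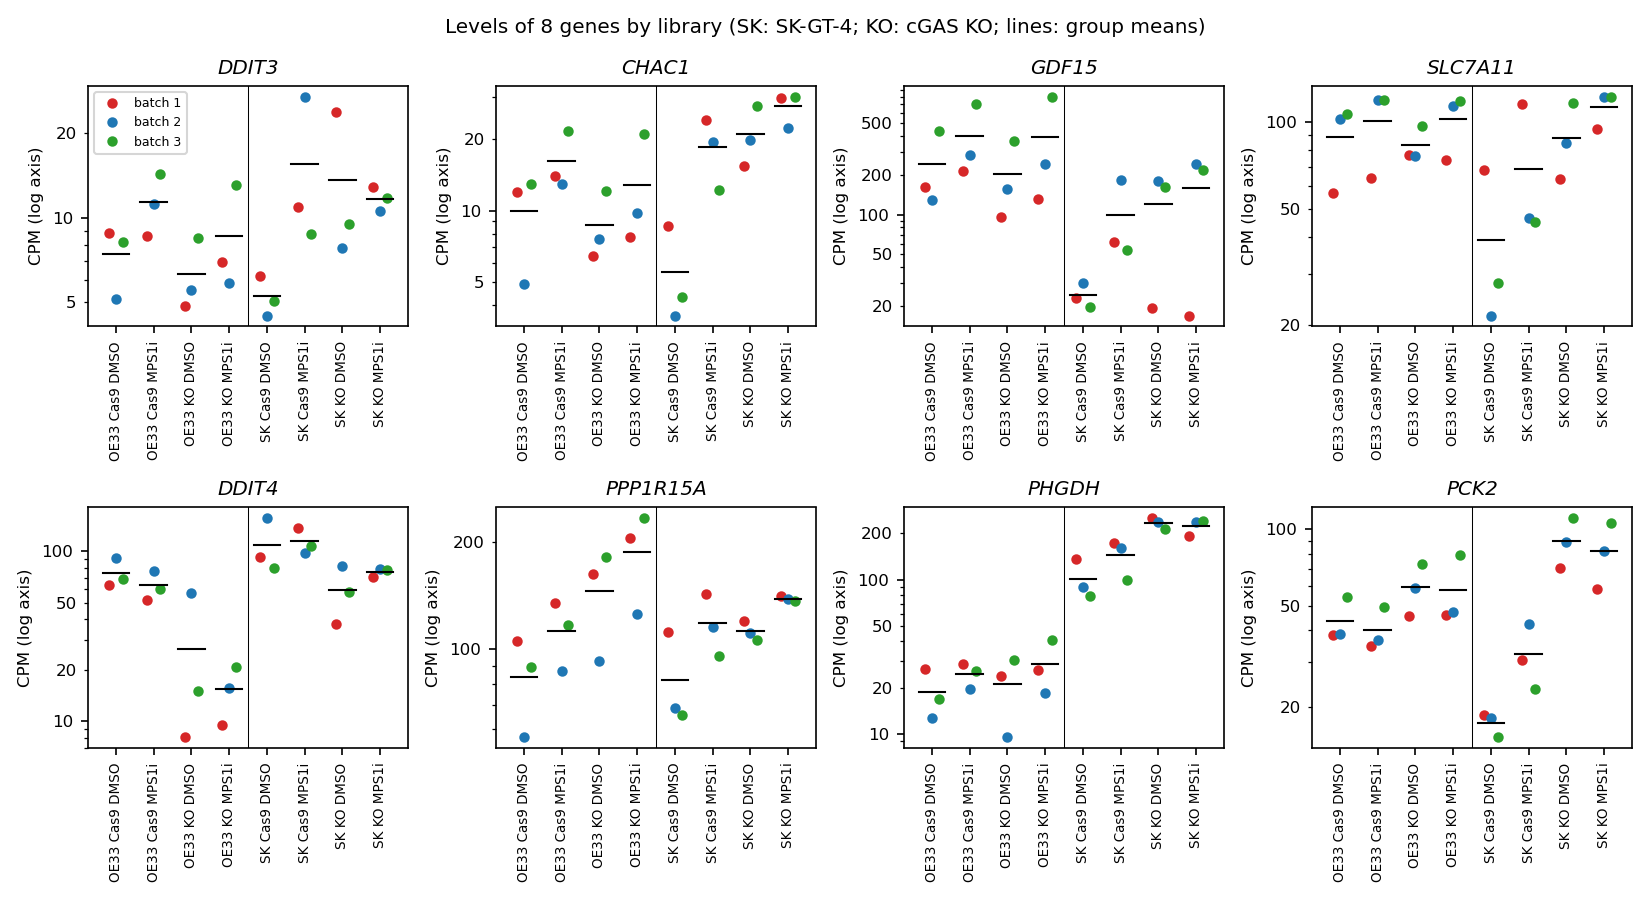
Level of 8 genes in each library, in CPM on a log axis, by group (OE33 left of the vertical line, SK-GT-4 right of it), coloured by batch, with group means as lines. GDF15 in SK-GT-4 cGAS KO falls into low replicate 1 libraries and high others. DDIT4 in OE33 cGAS KO lies below Cas9 except for 1 library. PHGDH and PCK2 in SK-GT-4 are lowest in the Cas9 DMSO group.

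The clones of OE33 differed from each other in several members. With DMSO, 3 of 36 genes were called between cGAS KO and Cas9 (1.47% of all genes), PPP1R15A higher and DDIT4 and VLDLR lower in cGAS KO. With MPS1i, 8 of 36 were called (2.84% of all genes): ATF5 and PPP1R15A higher, and PSAT1, SHMT2, MTHFD2, DDIT4, NUPR1 and XPOT lower. The median log2 difference was -0.18 with DMSO and -0.16 with MPS1i. Without replicate 2 of the libraries labelled OE33 cGAS KO with DMSO, 7 of 36 were called with DMSO (4.77% of all genes) and 11 with MPS1i (6.69%). Without the batch term, by contrast, 0 were called with DMSO (0.0734% of all genes) and 0 with MPS1i (0.0832%), so these calls rest on comparison within batches. With DMSO, leaving out batch 1, 2 or 3 gave 0, 1 and 0 calls (0.501, 2.04 and 0.059% of all genes). With MPS1i these were 0, 2 and 0 (0.648, 1.95 and 0.0966%).

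DDIT4 (ENSG00000168209, chr10:72273920-72276036) showed the widest gap among the members with more than a few counts, as its levels above show. All treated cGAS KO libraries of OE33 were at most 20.9 CPM, below every Cas9 library, and the difference was -1.78 ± 0.35 with DMSO (adjusted p = 0.00712; 9.54e-08 without the library of 15.6 CPM of CGAS) and -2.07 ± 0.35 with MPS1i (0.00198). The untreated library with 15.6 CPM of CGAS had 56.6 CPM of DDIT4, and the difference in its batch was -0.69 with DMSO against -2.95 and -2.16 in the others. PPP1R15A (ENSG00000087074, chr19:48872392-48876057) was higher in cGAS KO by 0.76 ± 0.12 with DMSO (adjusted p = 0.00196) and 0.69 ± 0.12 with MPS1i (0.0024). In each batch the cGAS KO library exceeded its Cas9 counterpart, although the groups overlapped across batches. ATF5 (ENSG00000169136, chr19:49928702-49933935) read 15.8, 12.3 and 9.79 CPM with DMSO and 14.9, 13.2 and 9.07 CPM with MPS1i in Cas9, and 25.8, 19.4 and 15.7 CPM and 30.4, 23 and 14.5 CPM in cGAS KO. It was higher in cGAS KO in 6 of 6 pairs, by 0.65 ± 0.14 with DMSO (adjusted p = 0.0128) and 0.83 ± 0.14 with MPS1i (0.00198).

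VLDLR, a lipoprotein receptor (ENSG00000147852, chr9:2621834-2660053), read 17.1, 25.7 and 33.1 CPM with DMSO and 19.5, 23.6 and 27.3 CPM with MPS1i in Cas9, and 6.48, 6.8 and 21.8 CPM and 7.5, 8.09 and 23.1 CPM in cGAS KO. Replicates 1 and 2 of cGAS KO were at most 8.09 CPM, while replicate 3 reached the Cas9 range, and the difference was -1.30 ± 0.24 with DMSO (adjusted p = 0.00437) and -1.07 ± 0.24 with MPS1i (0.01, which before rounding lay just above the threshold). NUPR1 fell in cGAS KO with MPS1i (-3.02 ± 0.58, adjusted p = 0.00446), a difference that rests on 2 to 14 counts in cGAS KO against 30 to 51 in Cas9. Of the enzymes, SHMT2 (ENSG00000182199, chr12:57229327-57234935), which makes glycine in mitochondria, read 268, 268 and 291 CPM with DMSO and 259, 275 and 304 CPM with MPS1i in Cas9. In cGAS KO it read 194, 214 and 179.8 CPM and 186, 187 and 187 CPM, below every Cas9 library. The difference was -0.52 ± 0.11 with DMSO (adjusted p = 0.0149) and -0.60 ± 0.11 with MPS1i (0.00451). MTHFD2, the next folate enzyme, read 129, 127 and 107 CPM and 145, 148 and 124 CPM in Cas9, and 113, 114 and 86.4 CPM and 101, 104 and 91.2 CPM in cGAS KO. Its groups overlapped with DMSO (-0.25 ± 0.10, adjusted p = 0.216) but not with MPS1i (-0.51 ± 0.10, 0.00654). PSAT1, whose levels are given above, was also lower in cGAS KO without overlap (-0.36 with DMSO, adjusted p = 0.0802, and -0.57 with MPS1i, 0.00471). XPOT, the exporter of tRNA from the nucleus, read 156, 158 and 138 CPM and 165, 158 and 137 CPM in Cas9 and 98.4, 151 and 91.6 CPM and 91, 94.8 and 85.9 CPM in cGAS KO. With MPS1i no library of XPOT overlapped between the clones (-0.78 ± 0.14, adjusted p = 0.0024).

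The amino acid transporters of OE33 gave no call in this comparison in the fit of all 12 libraries. Without replicate 2 of cGAS KO with DMSO, SLC7A5 was called with both agents. SLC7A5 (ENSG00000103257, chr16:87830023-87869488) read 411, 537 and 982 CPM with DMSO and 409, 496 and 755 CPM with MPS1i in Cas9, and 203, 521 and 655 CPM and 223, 334 and 639.6 CPM in cGAS KO. It was lower in cGAS KO in each of the 6 pairs (-0.55 ± 0.17 with DMSO, adjusted p = 0.0836, and -0.59 ± 0.17 with MPS1i, 0.0456). SLC7A11 read 57.2, 103 and 107 CPM and 64.1, 119 and 119.6 CPM in Cas9, and 77.3, 76.4 and 97.1 CPM and 74, 114 and 119 CPM in cGAS KO. The clones overlapped for SLC7A11 with both agents (-0.06 ± 0.14 with DMSO). PCK2 of OE33 read 38.2, 38.7 and 54.3 CPM and 34.8, 36.5 and 49.3 CPM in Cas9, and 45.5, 58.5 and 73 CPM and 45.8, 47.4 and 79.5 CPM in cGAS KO. It was higher in cGAS KO in 6 of 6 pairs (0.47 ± 0.12 with MPS1i, adjusted p = 0.0229). ATF4 was lower in cGAS KO in 6 of 6 pairs (-0.33 ± 0.11 with DMSO, adjusted p = 0.102, and -0.36 ± 0.11 with MPS1i, 0.0495).

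The genes around some of these members differed between the clones in the same direction. For each gene, the median log2 difference of the other genes of at least 1 CPM that start within 10 Mb was computed from the same fit. With MPS1i it was 0.37 around ATF5 and 0.37 around PPP1R15A, which both lie on chromosome 19, and 0.34 around PCK2. It was -0.28 around SHMT2 and -0.29 around XPOT, which both lie on chromosome 12, and -0.34 around PSAT1. Around DDIT4 and VLDLR, in contrast, it was 0.01 and -0.06. The copy number of these regions in the clones was not tested.

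In SK-GT-4, cGAS KO read above Cas9 for most of the 36 genes. With DMSO, 30 of 36 were above 0 with a median log2 difference of 0.62, against 0.03 for all genes tested. An unadjusted p of at most 0.05 with a higher level was reached by 19 of 36 (9.53% of all genes, 12.2% of those with a mean of at least 1 CPM; 11 without replicate 2, 11.7%, and 5 without replicate 3, 4.5%), and 2 were called, CHAC1 and PCK2 (1.76% of all genes). With MPS1i, 27 of 36 were above 0 with a median of 0.49, 9 reached an unadjusted p of at most 0.05 (9.17% of all genes; 18 without replicate 1, 12.4%, and 2 without replicate 3, 3.95%), and 0 were called (1.41% of all genes). The difference was not the same in every batch. With DMSO the medians by batch were -0.04, 0.84 and 0.90, and with MPS1i -0.06, 0.66 and 0.78. In batch 1, whose median was near 0, cGAS KO had 1.21 and 1.64% mitochondrial counts, against 5.66 to 11.3% in the others, and the part of this in the result was not tested. Without the 2 libraries that stood apart, 22 of 36 were called with DMSO (13.3% of all genes) and 13 with MPS1i (11.6%). Without both cGAS KO libraries of replicate 1, 11 were called with DMSO (2.46%) and 3 with MPS1i (2.55%). DESeq2 with the original design called 9 (6.52% of all genes) and 5 (6.25%). Leaving out batch 1, 2 or 3, edgeR's test called 6, 1 and 0 with DMSO (1.22, 1.01 and 0% of all genes) and 1, 0 and 0 with MPS1i (1.25, 0.707 and 0%). The Cas9 DMSO libraries are shared with the comparison of MPS1i against DMSO in Cas9, so that the higher values seen in both are not independent. The cGAS KO clone of this line also had the higher epithelial marker sum, and the part of this difference in the result was not tested.

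PCK2 (ENSG00000100889, chr14:24094053-24110598) separated the clones most clearly. Its lowest cGAS KO library with either agent, at 58.1 CPM, lay above its highest Cas9 library, at 42.5 CPM, and it rose by 2.35 ± 0.29 with DMSO (adjusted p = 0.00135; 1.29e-20 without the libraries that stood apart), with differences of 1.91, 2.31 and 2.85 in the 3 batches. With MPS1i the difference was 1.34 ± 0.29 (adjusted p = 0.0244). CHAC1 rose by 2.01 ± 0.36 with DMSO (adjusted p = 0.00997; 6.92e-18 likewise) and differed by 0.57 ± 0.35 with MPS1i (0.401). PHGDH (ENSG00000092621, chr1:119648411-119744226) read 136, 89.8 and 78.5 CPM with DMSO and 173, 161 and 99.2 CPM with MPS1i in Cas9, and 250.01, 236 and 212 CPM and 193, 236 and 239.8 CPM in cGAS KO. Its clones did not overlap with either agent, with differences of 1.21 ± 0.26 with DMSO (adjusted p = 0.0196; 3.55e-08 without the libraries that stood apart) and 0.68 ± 0.25 with MPS1i. PSAT1 read 307, 171 and 209 CPM and 335, 225 and 213 CPM in Cas9 and 373, 342 and 462 CPM and 445, 358 and 434 CPM in cGAS KO. It too separated the clones with both agents (0.80 ± 0.24 with DMSO, adjusted p = 0.0943), as did PSPH, the last enzyme of serine synthesis (0.79 ± 0.22, 0.0631). Of the folate enzymes, SHMT2 read 181, 161 and 163 CPM and 195, 178 and 175 CPM in Cas9 and 262, 213 and 284 CPM and 294, 219.6 and 262 CPM in cGAS KO. MTHFD2 read 153, 100.3 and 131 CPM and 187, 129 and 133 CPM in Cas9, and 236, 214 and 244 CPM and 289.9, 248 and 264 CPM in cGAS KO. The cGAS KO libraries of both enzymes lay above all Cas9 libraries (0.57 ± 0.20 and 0.86 ± 0.21 with DMSO, adjusted p = 0.162 and 0.036), the opposite order to that in OE33.

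Several other members, namely SLC7A5, SLC7A11, GDF15, SLC1A4 and VLDLR, were higher in cGAS KO in batches 2 and 3 but less or not at all in batch 1. XPOT and ATF5, also given here, did not follow this pattern. SLC7A5 read 2479.7, 2000.2 and 1614 CPM with DMSO and 2383, 1089 and 2034 CPM with MPS1i in Cas9. In cGAS KO it read 849.6, 3179 and 2196 CPM and 1633, 3054 and 2968 CPM. The untreated replicate 1 of cGAS KO was the lowest library for SLC7A5, and the difference with DMSO was -0.06 ± 0.49. For SLC7A11 the differences by batch were -0.11, 1.97 and 2.06 with DMSO, and the fitted difference was 1.34 ± 0.44 (adjusted p = 0.129; 0.00087 without both cGAS KO libraries of replicate 1). For GDF15 they were -0.25, 2.58 and 3.05 (1.74 ± 0.72, adjusted p = 0.235; 0.00273 likewise). For the neutral amino acid carrier SLC1A4 they were 0.31, 2.27 and 2.23 (1.75 ± 0.45, adjusted p = 0.048; 0.000612 likewise). XPOT read 96.8, 89.5 and 107 CPM and 108, 66.3 and 99.2 CPM in Cas9, and 78.9, 114 and 105 CPM and 135, 116 and 116 CPM in cGAS KO, with overlap between the clones with DMSO. ATF5 read 27.3, 19.3 and 21.9 CPM and 29.1, 12.5 and 23 CPM in Cas9, and 23.2, 20.8 and 19.6 CPM and 34.4, 20.4 and 20 CPM in cGAS KO. VLDLR read 4.34, 6.37 and 5.31 CPM and 6.06, 8.03 and 6.75 CPM in Cas9, and 4.57, 14.8 and 15.9 CPM and 4.83, 16.3 and 18.2 CPM in cGAS KO. ATF5 overlapped between the clones, whereas VLDLR was higher in cGAS KO in batches 2 and 3 (0.97 ± 0.36 with DMSO, adjusted p = 0.181).

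A lower level in cGAS KO was the exception in SK-GT-4. DDIT4 read 92.9, 156 and 79.4 CPM with DMSO and 137, 97.7 and 108 CPM with MPS1i in Cas9, and 37.2, 82.4 and 58 CPM and 70.2, 78.5 and 77.7 CPM in cGAS KO. It was lower in cGAS KO in 6 of 6 pairs (-0.90 with DMSO, adjusted p = 0.146, and -0.63 with MPS1i, 0.311), and neither difference passed the test. STC2 was lower as well, on the few counts given above. ATF4 itself differed between the clones by 0.21 ± 0.25 with DMSO and -0.33 ± 0.25 with MPS1i, and neither passed the test (adjusted p = 0.724 and 0.511). Around the members the neighbouring genes were at 0.63 for ASNS, 0.60 for PSPH, 0.50 for SLC1A4, 0.49 for MTHFD2 and 0.29 for PCK2 with DMSO. They were at 0.02 for CHAC1 and 0.06 for PHGDH, and at -0.43 for DDIT4.

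**Figure D4:**
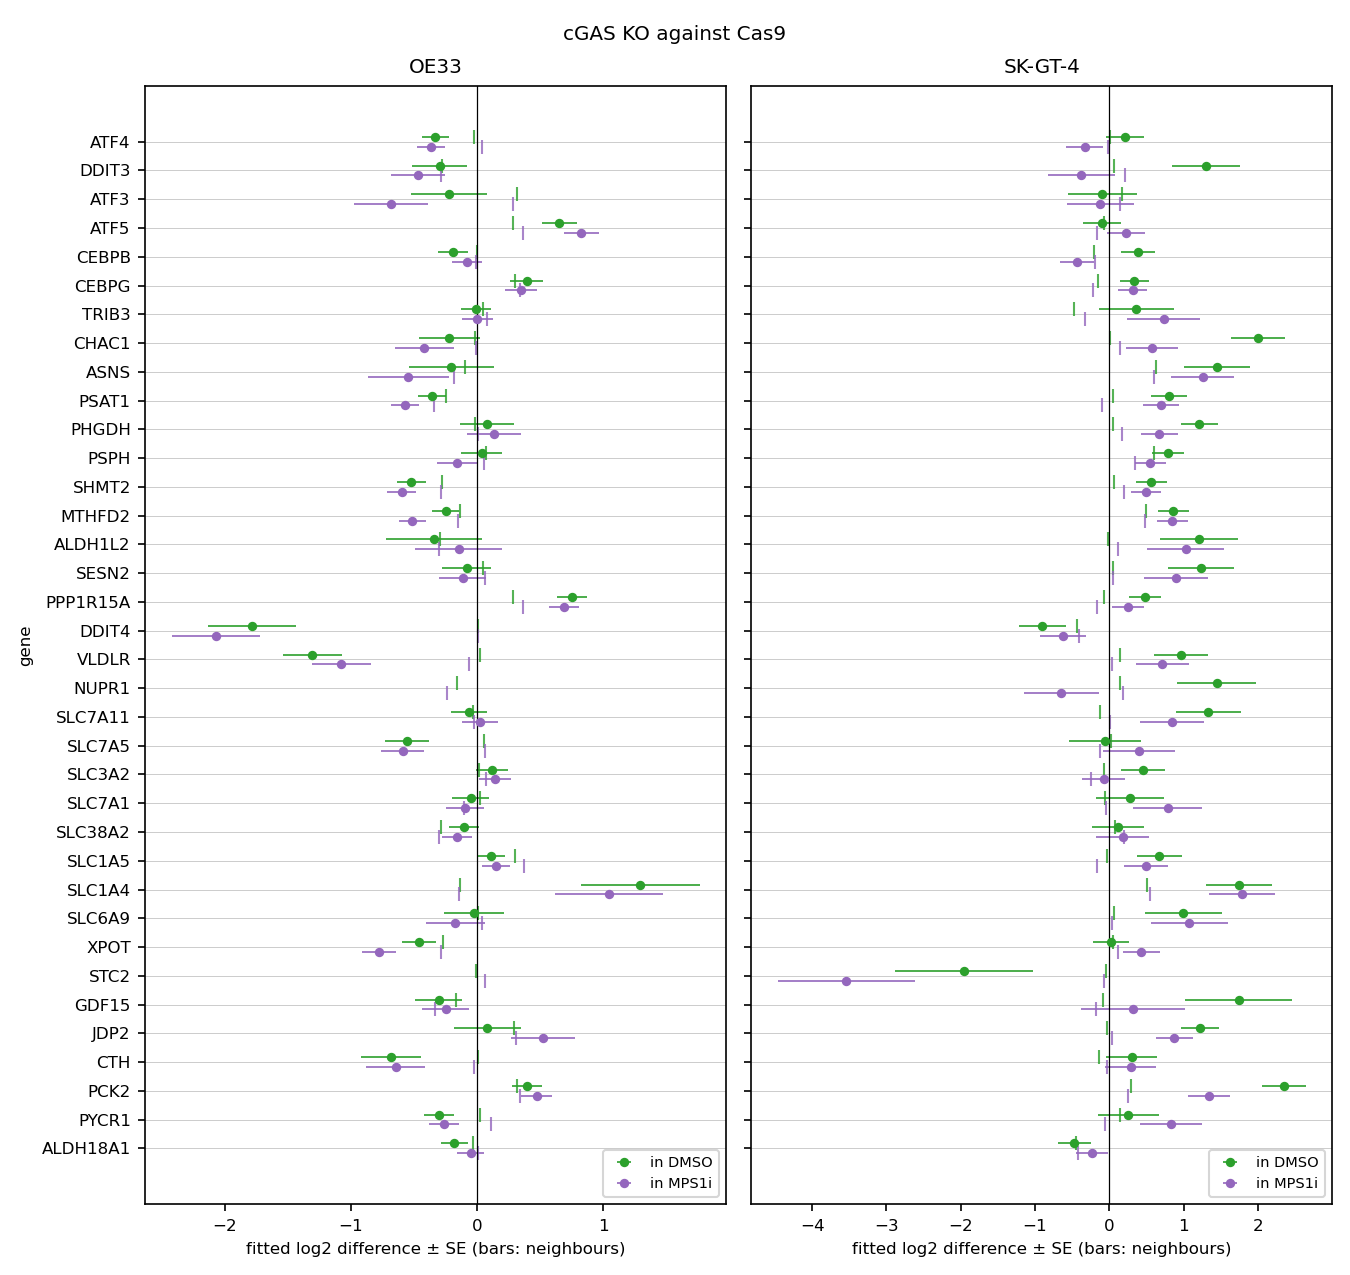
Fitted log2 difference of cGAS KO against Cas9 for each gene, with DMSO (green) and MPS1i (purple), in OE33 (left) and SK-GT-4 (right), on different scales. Points carry 1 standard error, and short vertical bars mark the median difference of the expressed genes within 10 Mb. NUPR1 and STC2 have no points in the OE33 panel because of their counts. DDIT4 lies left of 0 in both lines. In SK-GT-4, 30 of the 36 differences are above 0 with DMSO and 27 with MPS1i, whereas in OE33 25 of 36 and 24 of 36 are below 0, the genes without points included.

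With all libraries, more members were called between the lines than between agents or clones. Without the 2 SK-GT-4 libraries that stood apart, 21 were called between the lines and 22 between the SK-GT-4 clones with DMSO, with the shares of all genes given at the end. In the Cas9 DMSO groups, 18 of 36 genes were called between OE33 and SK-GT-4 (24.4% of all genes), 10 higher and 8 lower in OE33. The median log2 difference of the 36 was 0.03. The median was -0.14 for all 25181 genes tested and 0.02 for those with a mean of at least 1 CPM. With replicate 3 left out, 7 were called (12.4% of all genes). TRIB3 showed the widest separation, with 171 to 213 CPM in OE33 and 1.08 to 2.60 CPM in SK-GT-4 (6.90 ± 0.43, adjusted p = 1.22e-11 by edgeR's test over all 24 libraries). GDF15 was also higher in OE33 (3.10 ± 0.66, adjusted p = 0.000611), as were CTH, which makes cysteine (2.69), VLDLR (2.18), CEBPB (1.47), PYCR1 (1.39), PCK2 (1.30), the glutamine carrier SLC1A5 (1.06), ALDH18A1 (1.05) and SHMT2 (0.71). Among the genes lower in OE33 were SLC1A4 (-4.89 ± 0.62, adjusted p = 8.85e-07) and PHGDH (-2.46 ± 0.34, 2.6e-06). SLC7A5 (-1.83), JDP2 (-1.69), SLC3A2 (-1.24), ATF5 (-0.87) and PSPH (-0.73) were lower too, and STC2 had 0 counts in all 3 OE33 libraries against 6 to 20 in SK-GT-4. Within serine synthesis, PHGDH, PSPH and PSAT1 all read lower in OE33, although PSAT1 was not called (-0.44, adjusted p = 0.138). Both proline synthesis genes were higher. ATF4 differed by -0.60 ± 0.24 (adjusted p = 0.0576) and DDIT3 by 0.49 ± 0.42 (0.404).

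Neighbouring pathways were read through 5 lists, none of which had a gene called in any MPS1i comparison. Of 15 tested genes known as further targets of ATF4 or CHOP, 9 lay above 0 in the OE33 average (median 0.18) and 5 of them reached an unadjusted p of at most 0.05: KLHL24 (0.72 ± 0.16), BBC3, the pro-apoptotic PUMA (0.53 ± 0.12), ADM2 (0.87 ± 0.26), SQSTM1, an autophagy receptor (0.32 ± 0.10), and PMAIP1, or NOXA (0.34 ± 0.13). MTHFD1L was the 1 gene of the list below 0 at that p (-0.20 ± 0.08). In SK-GT-4 Cas9, 12 of 16 lay above 0 (median 0.29), with BBC3 (0.81 ± 0.25) and HERPUD1 (0.65 ± 0.25) at an unadjusted p of at most 0.05. FGF21 also reached that p, but at no more than 0.635 CPM in any library of the line it is given no fold change. The 15 genes of the eIF2 kinases and the eIF2 and eIF2B machinery had medians of -0.08 in the OE33 average and -0.06 in SK-GT-4 Cas9. The 20 cytosolic aminoacyl-tRNA synthetases had medians of -0.03 and -0.11. The 10 p53 targets had medians of 0.00 and 0.15, with CDKN1A, or p21, at 0.46 ± 0.15 in OE33 Cas9 (adjusted p = 0.522). The ATF6 and XBP1 arms of the unfolded protein response, which serve the folding of secreted proteins, had medians of -0.05 and 0.19 over 11 genes, with DNAJB9, an endoplasmic reticulum chaperone, at 0.85 ± 0.27 in SK-GT-4 Cas9 (adjusted p = 0.981).

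Between the SK-GT-4 clones, 10 of these 11 ATF6 and XBP1 genes lay above 0 with DMSO (median 0.73), and with MPS1i PDIA4, a disulfide isomerase, was higher in cGAS KO (1.6 ± 0.26, adjusted p = 0.00624) with 8 of 11 above 0 (median 0.36). In the same comparison with DMSO, 10 of the 16 further ATF4 and CHOP targets lay above 0 (median 0.24), the eIF2 genes had a median of -0.03, the tRNA synthetases 0.13 and the p53 targets 0.26, with no gene called in these lists. Between the OE33 clones, IMPACT, an inhibitor of the eIF2 kinase GCN2, was higher in cGAS KO with DMSO (0.82 ± 0.12, adjusted p = 0.001) and with MPS1i (0.65 ± 0.12, 0.00383). VEGFA, an angiogenic growth factor, fell in cGAS KO (-0.87 ± 0.15 with DMSO, adjusted p = 0.00337), and MTHFD1L, a folate enzyme, did so with DMSO (-0.55 ± 0.11, 0.00704). CDKN1A was higher there with DMSO (0.83 ± 0.15, adjusted p = 0.00355). The medians of the 5 lists in the DMSO comparison lay between -0.10 and 0.16. For genes of these lists, IMPACT and PDIA4 included, the levels of neighbouring genes were not computed. The copy number of their regions in the clones was not tested.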

How the data were processed

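The deposited table holds raw counts of read pairs per gene. Poly(A) RNA was sequenced in pairs of 150 bases, and the authors aligned the reads with HISAT2 2.0.5 to GRCh38 and counted them with featureCounts 1.5.0. The annotation release, the strand setting and the treatment of multiply aligned reads are not given in the sources used here. Groups and replicate numbers came from the labels, which name no batch. The study paired its tests by batch number, and each replicate number was taken here as a batch. Depth was 15561268 to 25284177 counts per library, so that a member with a few counts per library cannot show moderate differences.

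Genes with a total of at least 5 counts and a count in at least 4 libraries were tested per line (12 libraries) with edgeR 4.0.16 in R 4.3.3: trimmed-mean normalization, 4 group terms, a batch term, the quasi-likelihood test and Benjamini-Hochberg adjustment over all genes tested. Calls were made where the adjusted p did not exceed 0.01. Lines were compared in 1 fit over all 24 libraries. Printed CPM use the scaling over 24 libraries, which departs by at most 0.0622 log2 units from that per line, and log2 values per library use a prior count of 2. Libraries were paired by replicate number, taken as the batch number. As a check, deviations from the group means correlated between DMSO and MPS1i of the same clone and batch with r of 0.375 to 0.760 in OE33 and 0.0966 to 0.713 in SK-GT-4, across 13280 genes, which are not independent replicates. Alternatives were DESeq2 1.42.0, other filters, robust estimation, other blocks, and leaving out libraries. The study's correction of the counts for batch before testing was replaced here by the batch term. All 36 members may be named, with values in every library for 16 core genes and for the others called within a line. The members and lists were chosen with earlier results of these data known.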

Additional observations from a re-analysis of the deposited data

Results flagged for a closer look

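In SK-GT-4, the effect of MPS1i was larger in Cas9 than in cGAS KO for 5 of the 36 genes by a test of the difference itself in edgeR's fit, where the unadjusted p did not exceed 0.05, and none passed an adjusted p of 0.01 (0.823 for each). For DDIT3 the difference was 1.68 on the log2 scale (1.70, 2.13 and 0.48 in batches 1 to 3), and over the alternatives it ran from 0.49 to 2.25 with adjusted p of 0.624 to 1. For CEBPB it was 0.82 (1.03, 1.22 and 0.19), and over the alternatives 0.51 to 1.12 with adjusted p of 0.624 to 1. For CHAC1 it was 1.43 (0.52, 2.22 and 1.35), and over the alternatives 1.05 to 1.87 with adjusted p of 0.000842 to 1, the lowest of these without the 2 libraries that stood apart. NUPR1, with 16 to 201 counts in this line, gave 2.09 (2.52, 2.84 and 0.41), and over the alternatives 1.25 to 2.76 with adjusted p of 0.624 to 1. PCK2 gave 1.01 (0.99, 1.35 and 0.68), and over the alternatives 0.81 to 1.14 with adjusted p of 0.551 to 1.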

How the results depend on the processing

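No member called within a line changed direction under any alternative. Given here are the counts of called members that moved by more than 1.5 times, each with the share of all genes called under the same setting, and the medians over the 36 genes that moved by more than the SD of the 3 batch medians. The number of members called in the OE33 average of MPS1i against DMSO, 0 as reported, was 1 at an adjusted p of at most 0.05 (0.264%), 9 without a filter on low counts (1.45%) and 3 with DESeq2 (0.832%). With a replicate block per genotype and batch it was 10 (2.73%), and this block called 2 members in OE33 Cas9 (0.455%) and 2 in OE33 cGAS KO (0.494%). Without a filter, those were 3 (0.343%) and 2 (0.543%). Between the OE33 clones with DMSO, the count of 3 became 5 at an adjusted p of at most 0.05 (4.53%), 1 with edgeR's own filter on low counts (1.35%), 8 without a filter (3.73%), 5 with DESeq2 (3.63%), 0 without the batch term (0.0734%) and 1 with robust estimation (1.38%). With MPS1i, the count of 8 became 0 without the batch term (0.0832%). Between the SK-GT-4 clones with DMSO, the count of 2 became 6 at an adjusted p of at most 0.05 (4.89%), 9 with DESeq2 (6.52%), and 1 with edgeR's own filter (2.72%), without the batch term (0.838%) and with robust estimation (1.62%). With MPS1i, the count of 0 became 3 at an adjusted p of at most 0.05 (4.47%) and 5 with DESeq2 (6.25%). The median effect of MPS1i in SK-GT-4 was 0.40 in Cas9 with edgeR's own filter and 0.23 in the average without the batch term. The causes of these changes were not tested.

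Leaving out each batch in turn gave 0 to 1 members called in the OE33 average, the 1 without replicate 1 (0.116%), 0 to 1 between the OE33 clones with DMSO, 0 to 2 with MPS1i, 0 to 6 and 0 to 1 between the SK-GT-4 clones with DMSO and MPS1i, and 7 to 14 between the lines, the fewest without replicate 3 (12.4%). The median effect of MPS1i ran from 0.14 to 0.29 in OE33 cGAS KO, from 0.37 to 0.39 in SK-GT-4 Cas9 and from 0.12 to 0.24 in SK-GT-4 cGAS KO, and the median difference of the effect between the SK-GT-4 clones from 0.11 to 0.24. The median difference between the OE33 clones with DMSO ran from -0.21 to 0.0094, the highest without replicate 1, and was -0.23 with only replicate 2 of cGAS KO with DMSO left out. Without that library, whose CGAS level went against its label, 1 member was called in the OE33 average (0.164%) and 7 between the OE33 clones with DMSO (4.77%). Without SK-GT-4 Cas9 MPS1i replicate 2, the median in Cas9 was 0.43, and 5 members were called between the clones with DMSO (4.55%) and 1 with MPS1i (1.9%). Without replicate 1 of SK-GT-4 cGAS KO with DMSO, the median effect of MPS1i was -0.025 in cGAS KO, 0.22 in the average and 0.34 for the difference between clones, and 6 (2.14%) and 3 (3.45%) members were called between the clones. Without both, 4 members were called in Cas9 (0.103%; median 0.43), 1 in the average (0.117%; 0.19) and 1 for the difference between clones (0.0225%; 0.42), the cGAS KO median was -0.033, and 22 (13.3%) and 13 (11.6%) members were called between the clones and 21 between the lines (32.7%). Without both cGAS KO libraries of replicate 1 the clone counts were 11 (2.46%) and 3 (2.55%). The last 2 omissions and robust estimation were chosen after seeing the data. Over all alternatives, the median difference of the effect ran from -0.03 to 0.13 in OE33 and from 0.09 to 0.42 in SK-GT-4. The median difference between clones ran from -0.32 to -0.07 in OE33 with MPS1i, and in SK-GT-4 from 0.46 to 0.88 with DMSO and 0.36 to 0.82 with MPS1i. Within the 250 bases before the start, the motif was in 12.8% of member promoters and 3.14% of all.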
